A study of Mus musculus with 6 samples.

Results

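Interferon receptor, signalling and response genes were followed in mouse leukemia-model cells kept under 2 culture conditions. A list of 38 gene symbols was looked up in the table of 23337 genes, and all 38 were found. The cells were hematopoietic stem and progenitor cells (HSPCs) transformed with MLL-AF9, a leukemia-causing gene fusion, which every library of both groups carried. Pro-lymphoid culture gave 3 libraries (lymphoid replicates 1, 5 and 6) and pro-myeloid culture gave 3 (myeloid replicates 2, 3 and 4), each made from poly(A) RNA. The sources used here do not give the mouse strain, the age of the animals, the media and cytokines, or whether an interferon was added. Nothing in the labels ties the libraries to different cultures or mice; if they share one, the p-values measure technical spread alone.

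Interferons are secreted proteins that warn cells of infection. Type I interferons act through the receptor chains Ifnar1 and Ifnar2, and interferon-gamma acts through Ifngr1 and Ifngr2. The receptors switch on Janus kinases and STAT proteins, which act on the DNA elements called ISRE, where Stat2 and Irf9 take part, and GAS. The genes switched on from these elements encode sensors of foreign RNA, enzymes that degrade or edit RNA, and proteins that keep viruses from entering or leaving a cell. Many of them are also held at a low standing level in blood cells without infection, and hematopoietic stem cells are known to keep some of them, among them IFITM genes, at a high one.

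The promoters of the genes that the results turn on are shown first, to show which of them hold the interferon element and which do not. Each stretch is the 150 bases before the RefSeq start of the gene, in GRCm38.p6 (mm10), written 5′ to 3′ on the strand of the gene, with each match to the core of the ISRE (the letters GAAA, any 2 bases, then GAAA, on either strand) in capitals. Neighbouring matches that overlap form 1 run of capitals.
Isg15 (chr4:156200819-156200968, minus strand): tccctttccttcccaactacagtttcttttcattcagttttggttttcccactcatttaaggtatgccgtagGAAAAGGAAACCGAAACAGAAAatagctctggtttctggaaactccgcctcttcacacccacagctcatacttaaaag
Oas1a (chr5:120907526-120907675, minus strand): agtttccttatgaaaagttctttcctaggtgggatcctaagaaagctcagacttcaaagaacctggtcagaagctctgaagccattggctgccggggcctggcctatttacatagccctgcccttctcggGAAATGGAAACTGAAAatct
Gbp2 (chr3:142620513-142620662, plus strand): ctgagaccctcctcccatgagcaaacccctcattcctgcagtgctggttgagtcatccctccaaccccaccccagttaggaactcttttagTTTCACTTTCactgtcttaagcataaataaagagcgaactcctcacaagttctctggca
Gbp3 (chr3:142559894-142560043, plus strand): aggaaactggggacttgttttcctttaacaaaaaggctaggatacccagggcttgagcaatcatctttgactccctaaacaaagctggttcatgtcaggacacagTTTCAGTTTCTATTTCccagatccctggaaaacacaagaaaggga
Bst2 (chr8:71537473-71537622, minus strand): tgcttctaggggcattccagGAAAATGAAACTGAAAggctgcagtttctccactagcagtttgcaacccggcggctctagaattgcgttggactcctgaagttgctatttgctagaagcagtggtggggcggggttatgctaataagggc
Ifitm1 (chr7:140967926-140968075, plus strand): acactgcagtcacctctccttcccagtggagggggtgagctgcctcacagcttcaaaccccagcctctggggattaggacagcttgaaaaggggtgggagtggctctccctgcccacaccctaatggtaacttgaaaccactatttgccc
Ifitm2 (chr7:140955962-140956111, minus strand): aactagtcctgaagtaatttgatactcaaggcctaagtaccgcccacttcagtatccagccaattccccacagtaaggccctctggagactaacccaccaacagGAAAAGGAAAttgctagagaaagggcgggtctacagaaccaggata
Ifitm3 (chr7:141010745-141010894, minus strand): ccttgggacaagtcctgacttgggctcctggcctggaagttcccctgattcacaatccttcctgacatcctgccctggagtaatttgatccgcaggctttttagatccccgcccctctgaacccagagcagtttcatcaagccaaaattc
Isg15 held 3 overlapping cores and Oas1a, Gbp3 and Bst2 held 2 each. Gbp2 and Ifitm2 held 1 each. No core lay in the stretches of Ifitm1 and Ifitm3, and in Ifitm3 2 cores lay just after the start, at positions 3 to 12 and 20 to 29 counted from the first transcribed base. The counting annotation also holds an Ifitm1 model that begins further upstream, at position 140967429, so the stretch shown for Ifitm1 lies inside that longer model.

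RefSeq windows of 250 bases before to 50 after the start were found for 30 of the 38 genes, and 15 of the 30 (50%) held at least 1 core on either strand. Over all 32851 windows the share was 3.44%, and over the 27025 genes with a window it was 3.99%. The GAS letters (TTCNNNGAA, which read the same on both strands) lay in 11 of the 30 (36.7%), against 8.30% of all windows and 9.55% of the genes with a window. A match of letters is a description of the window and does not show that a factor binds there.

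Levels are given as CPM, read counts set on a common library total, with libraries scaled against each other by edgeR's TMM method. The libraries held 34972488 to 46724382 counts, and 3 counts in 1 library correspond to 0.0650 to 0.0888 CPM. Changes are log2 fold changes of pro-lymphoid over pro-myeloid culture with their standard error (SE), from edgeR's quasi-likelihood test fitted over all genes with 3 libraries per group. A gene is called higher or lower in pro-lymphoid culture where the Benjamini-Hochberg adjusted p over all tested genes was under 0.05, and each adjusted p below comes from that fit. In bulk RNA, fewer cells of a type and less RNA per cell cannot be told apart.

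Most of the interferon response genes that changed were lower in pro-lymphoid culture. Of the 38 genes, 34 passed the filter on low counts, and of these 17 were lower, 3 were higher and 14 had no call. Over all 12477 genes tested, 21.3% were lower, 17.4% were higher and 38.6% were called in either direction. The change was at least 2-fold for 14 of the lower and 2 of the higher genes, against 13.1% and 7.89% of all genes tested. The median log2 fold change was -0.73 for the 34 genes and -0.00019 for all genes tested. The lower genes ran from the membrane proteins Ifitm1 and Ifitm3, through the RNA sensors Ddx58, Ifih1 and Dhx58, to the ubiquitin-like modifier Isg15, and the higher ones were Usp18, Bst2 and Samhd1. The groups did not overlap for 19 genes that were lower and 4 that were higher by that measure, against 27.2% and 26.4% of all genes tested (53.6% in either direction).

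**Figure D1:**
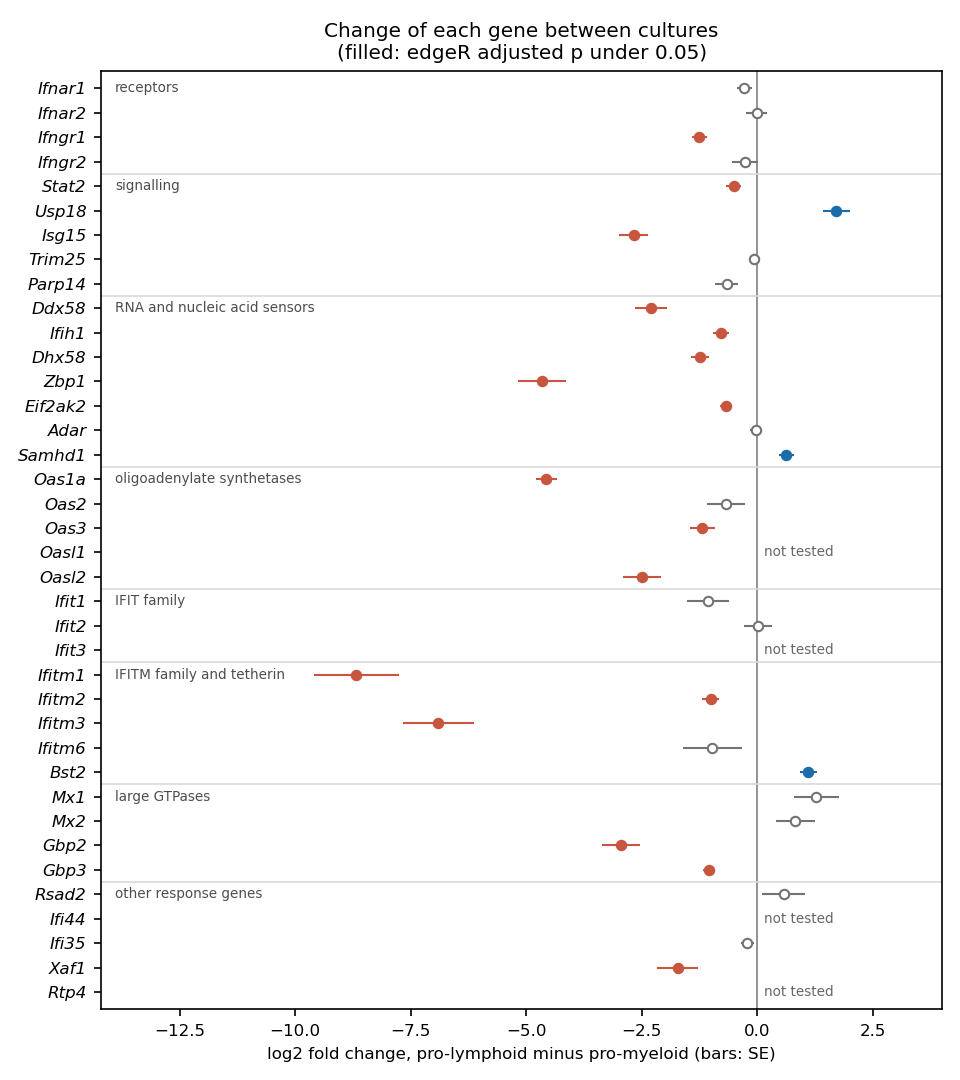
Log2 fold change (pro-lymphoid minus pro-myeloid, x axis) of each of the 38 genes, in order of role, with bars for the SE and filled points for an edgeR adjusted p under 0.05. The 17 filled points left of 0 run from -8.68 (Ifitm1) to -0.51 (Stat2), the 3 right of 0 are Usp18, Bst2 and Samhd1, and 4 genes were not tested.

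Read against the promoters, the ISRE core was in 11 of the 15 lower genes with a window, against 2 of 10 without a call and 1 of 2 higher. The GAS letters lay in 3 of the 15 lower genes, in both higher genes with a window (Bst2 and Samhd1) and in 6 of the 10 without a call. No window was found for Usp18, the other higher gene, or for the lower genes Dhx58 and Zbp1. Nor was one found for Mx1, Mx2, Oas2 and Parp14, which had no call, or for Rtp4, which was not tested. The 10 uncalled genes with a window include the receptor chains Ifnar1, Ifnar2 and Ifngr2, so the shares depend on which windows were found. These are shares of windows, read without a test.

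The receptor chains were expressed in every library of both cultures, and 1 of the 4 was called (25%, against 38.6% of all genes tested). Ifngr1, the ligand-binding chain for interferon-gamma (mm10, chromosome 10, 19591958 to 19610225), was measured at 112, 96.0 and 97.5 CPM in the libraries of lymphoid replicates 1, 5 and 6 and at 211, 298 and 219 CPM in those of myeloid replicates 2, 3 and 4, the order kept below. All pro-myeloid libraries were above all pro-lymphoid ones (log2 fold change -1.25 ± 0.16, SE, adjusted p = 0.00109). The other receptor chains lie close together on chromosome 16, Ifnar2 at 91372783 to 91405587, Ifnar1 at 91485215 to 91510522 and Ifngr2 at 91547094 to 91564007, and the groups overlapped for each of them. Ifnar1, a signalling chain for type I interferons, stood at 137, 142 and 105 against 161, 174 and 132 CPM (log2 fold change -0.28 ± 0.16, SE, adjusted p = 0.199). Ifnar2, the other chain, stood at 202, 280 and 208 against 171, 306 and 219 CPM (adjusted p = 0.971). Ifngr2, the second chain for interferon-gamma, stood at 86.0, 78.8 and 60.4 against 127, 83.5 and 60.3 CPM (adjusted p = 0.474). The adjusted p-values of these 3 chains miss the threshold, which does not show that their levels were equal.

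The proteins that pass on or restrain the signal moved both ways. Stat2, a transcription factor of type I signalling (chromosome 10, 128270576 to 128292849), stood at 37.7, 33.9 and 27.2 against 43.1, 53.5 and 44.0 CPM. It was lower by a small margin (log2 fold change -0.51 ± 0.16, SE, adjusted p = 0.0441). The call was lost under 7 of 14 alternative settings, among them upper-quartile scaling and leaving out lymphoid replicate 5 or 6 or myeloid replicate 3 or 4. Usp18, a protease that removes Isg15 from proteins and blocks signalling at Ifnar2 (chromosome 6, 121245906 to 121270917), stood at 5.37, 6.28 and 4.63 against 1.46, 2.31 and 1.26 CPM. Every pro-lymphoid library lay above the highest pro-myeloid one, and the fitted difference was 3.28-fold (log2 fold change 1.72 ± 0.30, SE, adjusted p = 0.00415).

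Isg15, the ubiquitin-like protein that Usp18 removes, went the other way. It stood at 0.407, 0.784 and 0.721 CPM in pro-lymphoid and 3.57, 4.62 and 4.18 CPM in pro-myeloid culture (chromosome 4, 156199424 to 156200818). The level was low in both cultures, and 6.39-fold lower in pro-lymphoid culture (log2 fold change -2.68 ± 0.31, SE, adjusted p = 0.000762). Trim25, a ubiquitin ligase that acts on the sensor Ddx58, stood at 115, 118 and 118 against 124, 125 and 117 CPM, with overlapping groups and little spread in either (adjusted p = 0.608). Parp14, an ADP-ribosyltransferase induced by interferon, stood at 42.9, 29.9 and 32.0 against 74.7, 49.2 and 41.2 CPM. Its groups overlapped between lymphoid replicate 1 and myeloid replicate 4, and it had no call in edgeR (log2 fold change -0.66 ± 0.25, SE, adjusted p = 0.0731), while DESeq2 called it lower (adjusted p = 0.043; 0.043 to 0.2 over the alternatives).

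**Figure D2:**
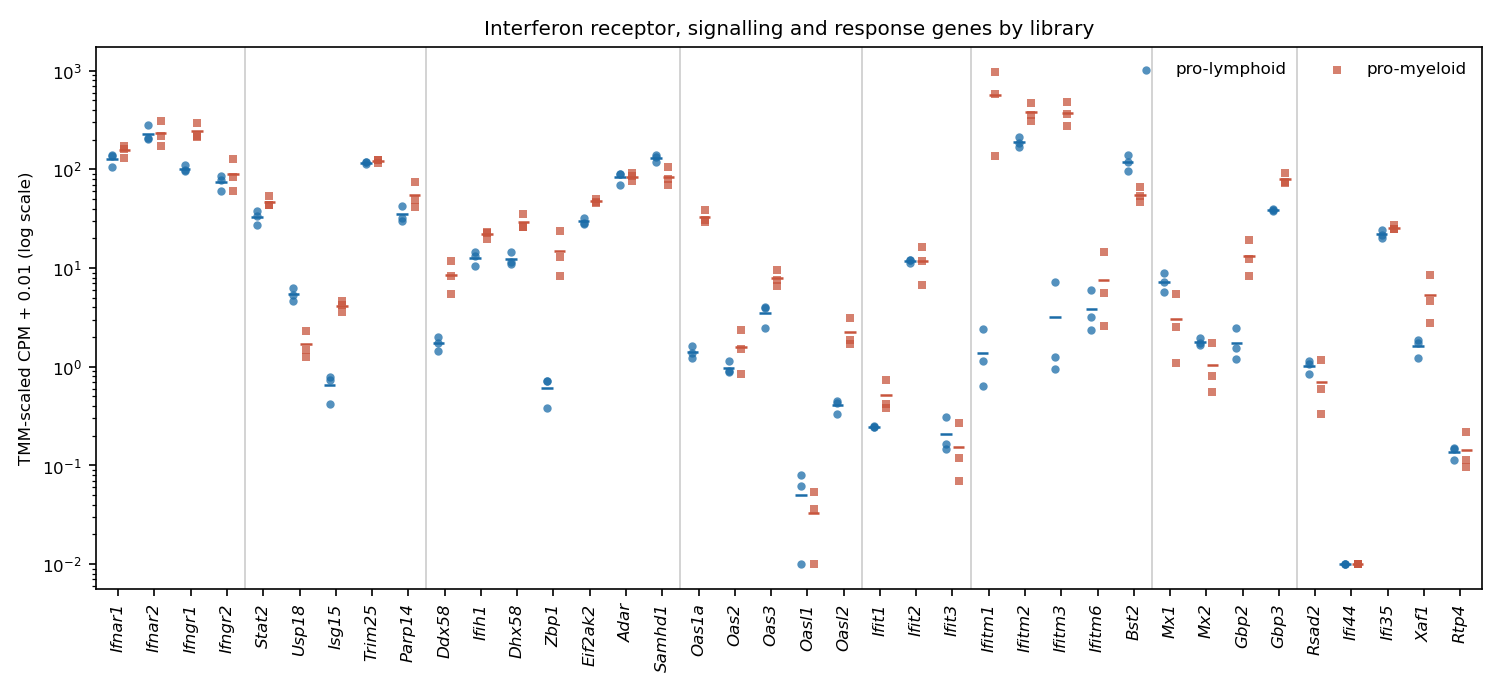
TMM-scaled CPM plus 0.01 (log scale) of each of the 38 genes in each library, with blue circles for pro-lymphoid and red squares for pro-myeloid libraries, a short line for the mean of each group and genes in order of role. The widest gaps between the groups are at Ifitm1, Ifitm3, Zbp1 and Oas1a, and Ifi44 sits at 0 counts in all 6 libraries.

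The role of RNA and nucleic acid sensors also holds the enzymes Adar and Samhd1, and 5 of its 7 genes were lower and 1, Samhd1, higher. This role has the most genes, and 85.7% of them were called, against 38.6% of all genes tested. Ddx58, which encodes the RNA helicase RIG-I (chromosome 4, 40203777 to 40239825), stood at 1.44, 1.73 and 2.001 against 11.8, 5.48 and 8.21 CPM. The pro-myeloid libraries spread 2.15-fold among themselves, and all lay above the pro-lymphoid ones (log2 fold change -2.30 ± 0.35, SE, adjusted p = 0.00225). Dhx58, a helicase of the same family without the signalling domains (chromosome 11, 100694884 to 100704271), stood at 14.4, 11.5 and 11 against 26.2, 34.9 and 26.0 CPM (log2 fold change -1.24 ± 0.19, SE, adjusted p = 0.0026). Ifih1, which encodes MDA5, the sensor of long double-stranded RNA, stood at 14.6, 13.2 and 10.5 against 23.4, 22.8 and 19.7 CPM. The groups did not overlap (log2 fold change -0.79 ± 0.18, SE, adjusted p = 0.0131), and the call was lost without lymphoid replicate 6 (adjusted p = 0.0548; 0.000494 to 0.0548 over the alternatives).

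Zbp1, a sensor of left-handed nucleic acid helices that can trigger necroptosis (chromosome 2, 173206612 to 173218922), had the widest difference among the sensors. It stood at 0.705, 0.706 and 0.372 CPM in pro-lymphoid and 8.33, 23.5 and 12.8 CPM in pro-myeloid culture. The gene was near silent in the first and varied 2.82-fold in the second, with myeloid replicate 3 highest (log2 fold change -4.65 ± 0.52, SE, adjusted p = 0.000632). Eif2ak2, which encodes the kinase PKR that halts translation on double-stranded RNA, stood at 32.5, 27.9 and 28.8 against 46.2, 45.6 and 50.5 CPM (log2 fold change -0.68 ± 0.12, SE, adjusted p = 0.0052). Its difference was smaller but even across libraries, with groups well apart.

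Neither Adar nor Samhd1, which act on RNA and on deoxynucleotides rather than signal, was lower. Adar, an enzyme that edits double-stranded RNA, stood at 89.8, 89.6 and 70.1 against 86.0, 92.3 and 75.7 CPM (adjusted p = 0.899). Its annotated exons share 8 of 6039 bases with Chrnb2 on the opposite strand, and counting did not use strand. Samhd1, an enzyme that breaks down deoxynucleotides and limits reverse transcription (chromosome 2, 157097529 to 157135222), stood at 140, 134 and 119 against 79.3, 105 and 69.2 CPM. It was higher in every pro-lymphoid library (log2 fold change 0.63 ± 0.17, SE, adjusted p = 0.0219), and without lymphoid replicate 1, lymphoid replicate 5 or myeloid replicate 4 the call was lost (adjusted p = 0.00537 to 0.0634 over the alternatives).

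The oligoadenylate synthetases make the second messenger that activates the antiviral nuclease RNase L. Of the 4 tested, 3 were lower (75%, against 21.3% of all genes tested). Oas1a (chromosome 5, 120896257 to 120907525) stood at 1.63, 1.36 and 1.21 CPM in pro-lymphoid and 38.8, 29.6 and 30.4 CPM in pro-myeloid culture. Both groups were tight, and the difference of 23.6-fold carried the smallest adjusted p of the list (log2 fold change -4.56 ± 0.22, SE, adjusted p = 1.45e-05). Its promoter holds 2 overlapping ISRE cores at positions -20 to -5 before the start, printed above. Oas3 stood at 3.96, 4.0 and 2.49 against 7.63, 9.62 and 6.54 CPM (log2 fold change -1.19 ± 0.27, SE, adjusted p = 0.013; 0.0519 without lymphoid replicate 6, and 0.000445 to 0.0519 over the alternatives). Oasl2, a synthetase-like protein (chromosome 5, 114896934 to 114912245), stood at 0.325, 0.444 and 0.419 against 1.85, 1.69 and 3.12 CPM (log2 fold change -2.49 ± 0.40, SE, adjusted p = 0.00313).

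Oas2 had no call, at 1.14, 0.889 and 0.884 against 0.833, 2.37 and 1.495 CPM with overlapping groups (adjusted p = 0.242). Oasl1 was not tested, with 5 counts in all pro-lymphoid and 3 in all pro-myeloid libraries together. Oas1a, Oas2 and Oas3 lie in 1 stretch of chromosome 5, and Oas1a has near-identical copies beside it, so reads of the copies may have been assigned to one another.

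The IFIT genes, which encode proteins that bind foreign RNA ends and are among the most inducible by type I interferon, were low or level. Ifit2 stood at 12.1, 12.1 and 11.3 against 16.5, 6.81 and 11.9 CPM, with the pro-myeloid libraries on both sides of the pro-lymphoid ones (adjusted p = 0.981). Ifit1 stood at 0.244, 0.235 and 0.233 against 0.729, 0.414 and 0.368 CPM, groups that did not overlap but gave no call (log2 fold change -1.07 ± 0.45, SE, adjusted p = 0.102). Ifit3 was not tested, at 0.136, 0.157 and 0.302 against 0.260, 0.0592 and 0.108 CPM. The 3 genes lie in 1 cluster on chromosome 19 and share sequence, so their values are uncertain in the same way. Ifit1, Ifit3, Rsad2, Rtp4, Oasl1 and Ifi44, chosen here after their values were seen as the genes at the bottom of the list, ranged from 0 to 1.17 CPM over the 6 libraries.

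The IFITM genes held the widest differences and the highest levels of the list. They encode small membrane proteins that keep viruses from fusing with the cell, and lie together on chromosome 7. Ifitm1 (140967429 to 140969827) stood at 0.624, 2.38 and 1.14 CPM in pro-lymphoid and 137, 979 and 585 CPM in pro-myeloid culture. The lowest pro-myeloid library lay far above the highest pro-lymphoid one, although the pro-myeloid libraries differed among themselves (log2 fold change -8.68 ± 0.92, SE, 410-fold lower, adjusted p = 0.000509). Without lymphoid replicate 5 the log2 fold change was -9.30, and without myeloid replicate 3 it was -8.03.

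Ifitm3 (141009590 to 141010744) stood at 0.949, 7.27 and 1.23 against 274, 487 and 363 CPM. Lymphoid replicate 5 was the highest pro-lymphoid library for both genes, and the groups were far apart with it (log2 fold change -6.90 ± 0.77, SE, 120-fold lower, adjusted p = 0.000634) and without it (log2 fold change -8.41). Ifitm2 (140954839 to 140955961), which lies next to Ifitm1 on the opposite strand, kept a high level in both cultures. It stood at 211, 184 and 168 against 307, 471 and 355 CPM, a difference of 2.01-fold (log2 fold change -1.01 ± 0.18, SE, adjusted p = 0.00457). Ifitm6 (141015812 to 141016892) stood at 6.05, 3.16 and 2.33 against 2.58, 14.6 and 5.59 CPM with overlapping groups (log2 fold change -0.98 ± 0.64, SE, adjusted p = 0.264).

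**Figure D3:**
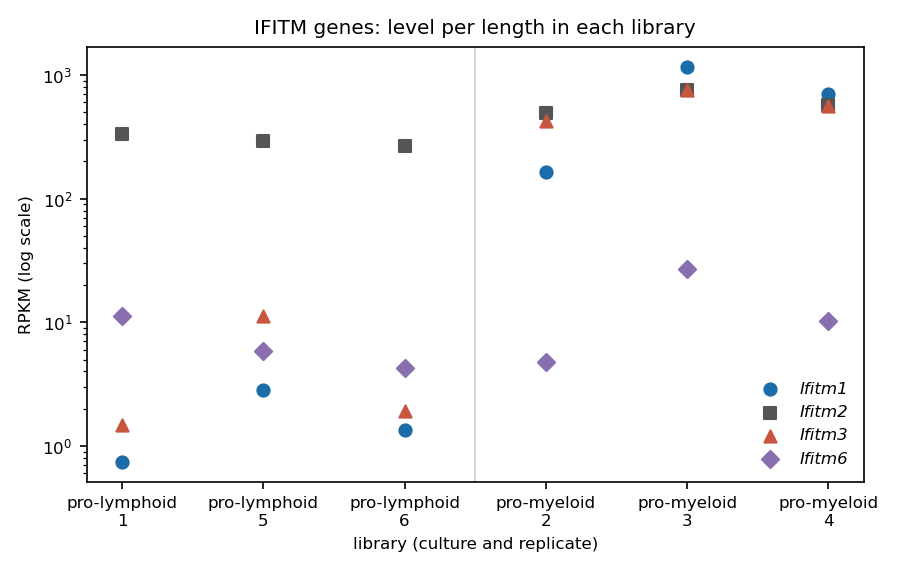
Level per length (RPKM, log scale) of Ifitm1, Ifitm2, Ifitm3 and Ifitm6 in each of the 6 libraries. In the pro-myeloid libraries Ifitm1 is below Ifitm2 and Ifitm3 in replicate 2 (163 against 489 and 423 RPKM) and above both in replicates 3 and 4, while in the pro-lymphoid libraries Ifitm2 stays at a mean of 300 RPKM and the other 3 lie below it.

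Set per kilobase of exon (RPKM), Ifitm1, Ifitm2 and Ifitm3 stood at 675 ± 501, 602 ± 134 and 579 ± 165 in pro-myeloid culture (SD, n = 3), 3 levels that did not differ beyond their spread and were the highest of the list. In pro-lymphoid culture Ifitm2 led at 300 ± 34.2 RPKM, followed by Bst2 at 155 ± 29.0 and Ifnar2 at 72.5 ± 13.7. Ifitm2 accounted for 96.5%, 93.5% and 97.3% of the counts of the 4 IFITM genes in the pro-lymphoid libraries and for 42.6%, 24.1% and 27.2% in the pro-myeloid ones (in the order of replicates given above, as shares of CPM). The 4 genes resemble each other in sequence, and reads that fit more than 1 of them may have been assigned to any. Without the IFITM genes, 14 of 30 tested genes were lower and 3 higher, with a median log2 fold change of -0.66.

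Bst2, which encodes tetherin, a protein that holds budding virus at the cell surface (chromosome 8, 71534262 to 71537437), was higher in pro-lymphoid culture. It stood at 96.1, 140 and 119 against 46.6, 66.2 and 53.2 CPM, with all pro-lymphoid libraries above all pro-myeloid ones (log2 fold change 1.10 ± 0.19, SE, adjusted p = 0.00367). Its promoter holds 2 overlapping ISRE cores, as do those of Oas1a and Gbp3, which were lower. Bst2 is also a surface marker of plasmacytoid dendritic cells, and markers of those cells were measured beside it. Of 6 tested plasmacytoid markers, 4 were higher (Siglech, Pacsin1, Spib and Ly6d), 1 was lower (Tcf4) and Cox6a2 had no call. Over all genes tested, 17.4% were higher and 21.3% were lower. Ly6d was uneven among the pro-lymphoid libraries, at 1.03, 124 and 23.2 CPM, against 0 CPM in every pro-myeloid one. Siglech, a receptor of these cells, stood at 6.78, 93.1 and 51.1 against 0.026, 1.30 and 0.347 CPM. Tcf4 stood at 314, 357 and 288 against 451, 578 and 446 CPM (adjusted p = 0.0154). Cox6a2 overlapped between groups, at 18.5, 216 and 79.4 against 2.27, 287 and 133 CPM. The summed level of the 8 markers ranged from 404 to 965 CPM in pro-lymphoid and from 454 to 869 CPM in pro-myeloid culture. Tcf4 was the largest part of that sum in every library, and Klk1 had a single count in each group. The part of such cells in the level of Bst2 was not tested.

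Of the 4 large GTPases, 2 were called (50%, against 38.6% of all genes tested), the guanylate-binding proteins Gbp2 and Gbp3, both lower. Gbp2, a guanylate-binding protein that attacks the membranes around intracellular microbes (chromosome 3, 142620663 to 142638008), stood at 1.19, 2.46 and 1.54 against 8.36, 19.4 and 12.3 CPM (log2 fold change -2.94 ± 0.41, SE, adjusted p = 0.00163). Gbp3, its neighbour (142560052 to 142573212), stood at 40.0, 37.7 and 38.8 against 75.2, 91.2 and 73.3 CPM (log2 fold change -1.04 ± 0.12, SE, adjusted p = 0.000843). The groups of both were well apart, and as members of a family of similar genes their reads may be shared.

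The Mx genes, which encode GTPases that trap viral nucleocapsids, had no call and positive log2 fold changes. Mx1 stood at 8.84, 7.22 and 5.72 against 1.09, 5.45 and 2.54 CPM, and its groups did not overlap, by a narrow gap between lymphoid replicate 6 and myeloid replicate 3 (log2 fold change 1.28 ± 0.49, SE, adjusted p = 0.0772). It was called higher with DESeq2, with limma-voom and without myeloid replicate 3, where the log2 fold change was 1.97. Mx2 stood at 1.65, 1.75 and 1.93 against 0.547, 1.75 and 0.802 CPM (log2 fold change 0.83 ± 0.42, SE, adjusted p = 0.158), and it was called higher without myeloid replicate 3 (adjusted p = 0.0307; 0.0307 to 0.36 over the alternatives).

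Of the other response genes, 1 of 3 tested was called (33.3%, against 38.6% of all genes tested). Xaf1, a promoter of cell death that antagonises an inhibitor of caspases (chromosome 11, 72301629 to 72313733), stood at 1.84, 1.23 and 1.72 against 2.79, 8.52 and 4.66 CPM. It was lower (log2 fold change -1.72 ± 0.45, SE, adjusted p = 0.0209), a call lost without lymphoid replicate 5 or 6. Ifi35 stood at 20.0, 24.5 and 21.8 against 25.1, 27.2 and 24.8 CPM, groups that just did not overlap, with no call (adjusted p = 0.26). Rsad2, which encodes the antiviral enzyme viperin, stood at 1.06, 0.837 and 1.14 against 1.17, 0.592 and 0.325 CPM (adjusted p = 0.372). Rtp4, at 0.136, 0.105 and 0.140 against 0.104, 0.207 and 0.0867 CPM, and Ifi44, with 0 counts in every library, were not tested; at these depths 0 counts in a library allow up to 0.0650 to 0.0888 CPM, for counting error only.

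As a whole, the 38 genes took more of the RNA in pro-myeloid culture, and the IFITM genes made up much of the difference. Their summed level was 1440, 1496 and 1278 CPM in lymphoid replicates 1, 5 and 6 and 2146, 3648 and 2635 CPM in myeloid replicates 2, 3 and 4. The IFITM genes took 15.2%, 13.2% and 13.5% of that sum in the pro-lymphoid and 33.6%, 53.5% and 49.7% in the pro-myeloid libraries. Without the IFITM genes the sums were 1222, 1299 and 1105 against 1425, 1697 and 1326 CPM, and the groups did not overlap. Without the IFITM genes and the 4 receptors the sums were 685, 702 and 633 against 756, 835 and 696 CPM, with overlapping groups. By level per length, 16 of the 38 genes had a mean under 1 RPKM in pro-lymphoid culture, against 10 in pro-myeloid culture, and 2 against 4 stood at 100 RPKM or more.

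Within the pro-myeloid group, myeloid replicate 3 was the highest library for 24 of the 34 tested genes, against 35.6% of all genes tested. Myeloid replicate 2 was highest for 8 and myeloid replicate 4 for 2. Among the pro-lymphoid libraries, replicate 1 was highest for 17 of the 34 (38.5% over all genes) and replicate 6 was lowest for 17 (28.6% over all genes). The genes are not independent of each other, so these counts describe the libraries. Leaving out myeloid replicate 3 gave 16 lower and 5 higher genes, and leaving out lymphoid replicate 6 gave 13 lower and 3 higher.

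Other parts of the pathway were described from lists of genes. Of the interferon genes themselves, 17 were in the table and 12 of them had no count in any library, Ifng among them. Ifnb1, an early type I interferon of infection, had 0 counts in pro-lymphoid culture and 1 in pro-myeloid culture. The single gene tested, Ifnz, stood at 0.163, 0.0784 and 0.372 against 0.260, 0.444 and 0.303 CPM (adjusted p = 0.416). The 17 genes together summed to 0.131 to 0.474 CPM in a library.

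Of 15 genes for the Janus kinases, STAT partners, brakes and Isg15 conjugation, 6 were lower and 0 higher (40% called, near the 38.6% of all genes tested), with a median log2 fold change of -0.32. Ptpn6, a phosphatase that dampens receptor signals, named like Ube2l6 after its values were seen, was the 1 gene higher at an unadjusted p under 0.05 in edgeR, and was called higher under 4 of 14 alternatives (upper-quartile scaling, DESeq2, limma-voom and without myeloid replicate 2), with an adjusted p of 0.00694 to 0.178 over them all. Socs3, a brake on cytokine receptors, stood at 7.97, 7.43 and 5.84 against 48.2, 52.1 and 50.1 CPM (log2 fold change -2.83 ± 0.16, SE, adjusted p = 3.3e-05). Of the 3 genes for attaching Isg15, the activating enzyme Uba7 and the ligase Herc6 were lower and the conjugating enzyme Ube2l6 had no call. Uba7 stood at 64.7, 40.2 and 42.6 against 118, 163 and 110 CPM (adjusted p = 0.00327) and Herc6 at 8.68, 8.05 and 7.79 against 17.1, 14.7 and 13.9 CPM (adjusted p = 0.00651). Ube2l6 overlapped between groups at 3.42, 6.28 and 4.96 against 4.89, 7.99 and 6.89 CPM (log2 fold change -0.43 ± 0.30, SE, adjusted p = 0.292). Irf9, the DNA-binding partner of Stat2, overlapped between groups at 24.7, 28.2 and 21.4 against 22.3, 41.0 and 27.1 CPM (adjusted p = 0.391).

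Of 55 tested further type I response genes, 21 were lower and 7 higher (50.9% called, against 38.6% of all genes tested), with a median log2 fold change of -0.28. Without lymphoid replicate 6 the counts were 14 and 4, without lymphoid replicate 5 they were 19 and 4, and without myeloid replicate 4 they were 17 and 4. Slfn9, of the Schlafen family, stood at 0.244, 0.131 and 0.279 against 29.4, 15.7 and 20.9 CPM (log2 fold change -6.62 ± 0.41, SE, adjusted p = 4.61e-05). Ddx60, a helicase that assists RIG-I, had 4 counts in pro-lymphoid culture against 377 in pro-myeloid culture (log2 fold change -6.44 ± 0.61, SE, adjusted p = 4.27e-05; -7.60 without lymphoid replicate 6). Mndal, of the interferon-inducible p200 family, moved the other way, at 75.6, 85.4 and 67.7 against 3.64, 2.22 and 0.997 CPM (log2 fold change 5.08 ± 0.40, SE, adjusted p = 0.000136). Irf7, the factor that amplifies interferon production, stood at 1.95, 3.69 and 2.54 against 4.61, 6.54 and 4.16 CPM with no call (adjusted p = 0.0587), while DESeq2 and the fit without lymphoid replicate 5 called it lower.

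**Figure D4:**
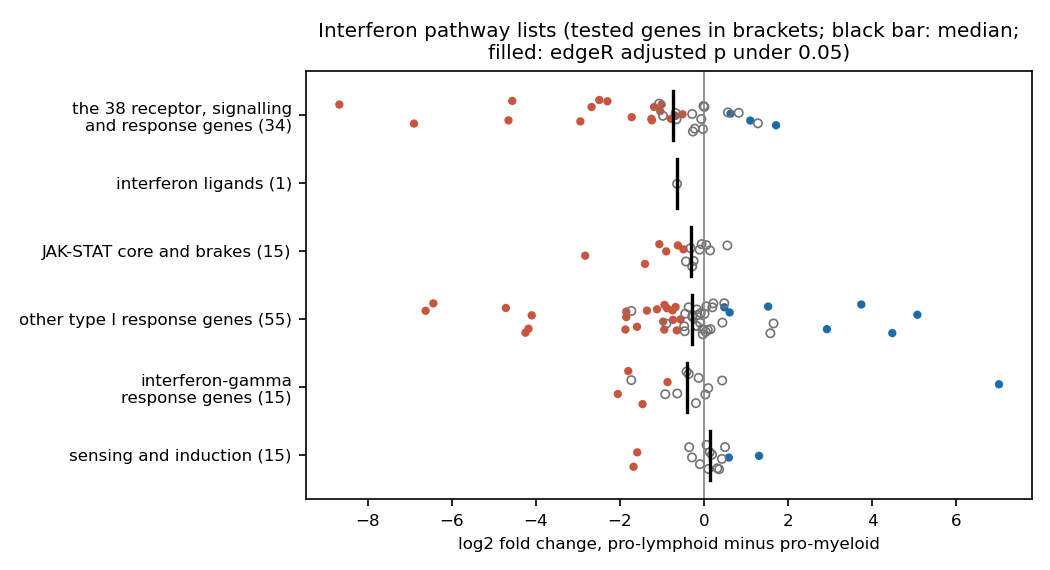
Log2 fold change (pro-lymphoid minus pro-myeloid, x axis) of every tested gene of the 38-gene list and of 5 further pathway lists, with a black bar for the median and filled points for an edgeR adjusted p under 0.05. The medians lie at -0.73 for the 38 genes, -0.32 for the JAK-STAT list, -0.28 for other type I genes, -0.42 for interferon-gamma genes and 0.14 for sensing genes.

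Of 15 tested interferon-gamma response genes, 4 were lower and 1 higher (33.3% called, under the 38.6% of all genes tested), with a median log2 fold change of -0.42. The number of lower genes was 2 without lymphoid replicate 1 or 6 or without myeloid replicate 3 or 4, and 7 without myeloid replicate 2, where 19 genes were tested. Gbp7 stood at 6.73, 10.1 and 8.51 against 32.9, 37.9 and 34.4 CPM (log2 fold change -2.05 ± 0.19, SE, adjusted p = 0.000277), and Gbp5 at 2.71, 4.73 and 3.07 against 9.14, 17.4 and 10.2 CPM (adjusted p = 0.00593). Both were lower like Gbp2 and Gbp3. Ciita, the master regulator of MHC class II genes, stood at 0.298, 14.2 and 3.19 against 0.026, 0.0592 and 0.0433 CPM. It was higher in each pro-lymphoid library but unevenly so (log2 fold change 7.02 ± 1.52, SE, adjusted p = 0.0053), with 5 pro-myeloid counts in all. Without lymphoid replicate 5 the log2 fold change of Ciita was 5.31, and with limma-voom it was 5.52 with the call lost (adjusted p = 0.0813; 1.13e-08 to 0.0813 over the alternatives).

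Of 15 genes for sensing and for induction of interferon, 2 were lower and 2 higher (26.7% called, under the 38.6% of all genes tested), with a median log2 fold change of 0.14. Myd88, the adaptor of Toll-like receptors, stood at 42.8, 47.4 and 46.9 against 113, 178 and 148 CPM (log2 fold change -1.68 ± 0.17, SE, adjusted p = 0.000468). Ikbke, a kinase that activates interferon regulatory factors, stood at 62.4, 24.97 and 24.1 against 136, 126 and 72.7 CPM (log2 fold change -1.59 ± 0.42, SE, adjusted p = 0.0211). Without lymphoid replicate 1 its log2 fold change was -2.18, and leaving out lymphoid replicate 5, lymphoid replicate 6 or myeloid replicate 3 ended the call. Tlr9, the receptor for unmethylated DNA, stood at 60.4, 40.9 and 24.4 against 17.5, 21.4 and 11.8 CPM (log2 fold change 1.31 ± 0.36, SE, adjusted p = 0.0242), and leaving out lymphoid replicate 1, lymphoid replicate 5 or myeloid replicate 4 ended the call.

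Markers of cell types that a culture could hold were measured beside these genes. All 8 tested neutrophil markers were lower in pro-lymphoid culture, against 21.3% of all genes tested. The 10 listed summed to 162 to 366 CPM there against 4582 to 9144 CPM in pro-myeloid culture. Most of the pro-myeloid sum came from Elane, Mpo, Prtn3 and Ctsg, at means of 1509, 1654, 1392 and 2076 CPM. Mpo spread widely, at 148, 1511 and 3304 CPM in myeloid replicates 2, 3 and 4, while Elane, Prtn3 and Ctsg spread less. S100a8 and S100a9 also varied, at 4.11, 18.4 and 55.8 CPM and at 0.338, 14.9 and 60.9 CPM in these libraries. Ltf and Camp, the 2 markers not tested, had pro-myeloid means of 0.525 and 0.235 CPM. Macrophage and monocyte markers summed to 641 to 1317 against 1622 to 3037 CPM, with 2 of 6 tested lower. Of 6 progenitor markers 4 were higher and 2, Hoxa9 and Meis1, lower (17.4% and 21.3% over all genes tested). Their sums were 1025 to 1112 against 512 to 564 CPM. Stromal markers summed to 1.90 to 19.4 against 6.28 to 33.9 CPM with Col1a2, Col3a1, Dcn and Lum at 0, and T and NK markers to 0.372 to 0.841 against 0.495 to 1.99 CPM with Cd3e, Ncr1 and Gzma at 0. B cell markers summed to 24.99 to 34.85 against 29.5 to 54.4 CPM. Mast and basophil markers summed to 12.4 to 33.4 against 48.3 to 156 CPM, and erythroid and megakaryocyte markers to 1.83 to 5.35 against 1.63 to 3.03 CPM. The part of myeloid cells in the lower interferon genes of pro-lymphoid culture was not tested.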

How the data were processed

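Poly(A) RNA of 6 libraries was sequenced as single-end reads with a kit that does not mark strand, per the labels' protocols. The authors deposited raw read counts per gene. Per the file headers, featureCounts 1.5.1 counted primary alignments over exons of a UCSC annotation of mm10, without strand, which leaves reads of similar or overlapping genes uncertain. Trimmomatic, Bowtie, TopHat and DESeq2 are also named in the submitters' processing notes, with settings not given in the sources used here. The deposited exon length of each gene was used for RPKM.

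Groups came from the labels. All genes were tested with edgeR 4.0.16 in R 4.3.3 (filterByExpr, TMM, quasi-likelihood F test, two-sided, Benjamini-Hochberg at 0.05), and the SE came from the F statistic. Alternatives were other scalings and filters, DESeq2 1.42.0, limma-voom (limma 3.58.1), a 2-fold minimum and each library left out. Every listed gene is reported, and of each pathway list the counts, Irf9, Irf7 and up to 3 further genes with the smallest adjusted p. Some genes that the rule or marker lists name are left out of the text. The 38 genes, the pathway and marker lists and the rule were chosen with earlier results of these data known.

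Promoter windows are from RefSeq (GRCm38.p6). On counts simulated for 12477 genes, 0% of 50 genes changed by a log2 of 0.5 were recovered, 28% at 1, 80% at 2 and 96% at 4. Of the 12277 unchanged genes, 0.0489% were called. Far fewer genes changed in the simulation than the 38.6% called in the data, which makes the adjustment of p stricter there. These rates therefore do not give the recovery in the data.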

Additional observations from a re-analysis of the deposited data

How the results depend on the processing

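Of the 20 called interferon genes, 15 kept call and direction under each of 14 alternatives, and Stat2, Samhd1, Xaf1, Oas3 and Ifih1 lost the call under at least 1. Mx1, Mx2 and Parp14 gained a call under at least 1. The number called ranged from 16 (without lymphoid replicate 6) to 22 (DESeq2). With 1 library left out in turn, 2 to 5 were higher (5 without myeloid replicate 3) and 13 to 17 lower. Over all genes, leaving out 1 library gave 3086 to 5385 called and 1298 to 2478 higher, the fewest without lymphoid replicate 6, and 1394 were higher without myeloid replicate 4. A 2-fold minimum left 2620 genes (985 higher, 1635 lower). The direction turned only for uncalled genes near 0. Adar was at 0.022 with upper-quartile scaling and 0.023 with no scaling, and Ifnar2 at 0.030 and 0.037 with these and at 0.012 with limma-voom. With 1 library left out, the log2 fold change ran from -0.10 to 0.086 for Adar (above 0 without lymphoid replicate 6 or myeloid replicate 3), from -0.19 to 0.24 for Ifnar2 (above 0 without myeloid replicate 3 or lymphoid replicate 1 or 6), from -0.26 to 0.33 for Ifit2 (below 0 without myeloid replicate 3 or lymphoid replicate 1 or 5) and from -0.49 to 0.062 for Ifngr2 (above 0 without myeloid replicate 2). The cause was not tested. An earlier form of the quasi-likelihood fit, chosen after seeing the data, called 4665 genes and 20 of the list. No paired analysis was possible because the groups share no replicate number. Oasl1, Ifit3, Rtp4 and Ifi44 had too few counts for the filter on low counts.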

Other observations

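Of 7 interferon-inducible p200 genes on the type I list, which encode related DNA-binding proteins, 4 of 6 tested were higher in pro-lymphoid culture (Mndal, Ifi203, Ifi205 and Mnda) and 2 had no call. The family was singled out after its values were seen. Over all genes tested, 17.4% were higher and 38.6% were called in either direction. Ifi203 stood at 63.1, 47.2 and 44.6 CPM in pro-lymphoid (replicates 1, 5 and 6) and 3.23, 2.78 and 1.04 CPM in pro-myeloid culture (replicates 2, 3 and 4) (log2 fold change 4.48 ± 0.38, SE, edgeR adjusted p = 0.000206). Ifi205 stood at 2.47, 2.80 and 2.37 against 0.234, 0.266 and 0.0867 CPM (edgeR adjusted p = 0.00046), and Mnda at 2.93, 3.32 and 2.40 against 0.312, 0.651 and 0.217 CPM (edgeR adjusted p = 0.00156). Each was higher in all 3 pro-lymphoid libraries. Ifi204 stood at 1.6, 1.80 and 1.47 against 0.417, 5.18 and 1.28 CPM (edgeR adjusted p = 0.669) and Pyhin1 at 22.1, 12.3 and 22.7 against 3.28, 48.3 and 13.3 CPM (edgeR adjusted p = 0.878), both with overlapping groups, and Ifi202b had 0 counts in every library. The genes are close copies of one another, so how their reads were divided among them is uncertain and their values are not independent.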
